A study of Mus musculus with 12 samples.

Results

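The genes described here are 9 genes of proton-secreting cells, the clear and narrow cells of the epididymis and their relatives. They were chosen with earlier results of these data known. They were taken by symbol as Foxi1, Atp6v1b1, Atp6v0d2, Atp6v1g3, Atp6v0a4, Atp6v1c2, Car2, Car4 and Car12. All 9 were found among the 31669 genes of the male and the 31618 genes of the female files. The series holds 12 RNA-sequencing libraries from mice of CD1/129 background aged 3 to 7 months, each made from RNA pooled from 3 animals, with 1 library per tissue and genotype. The male libraries came from the vas deferens of 4 Hox mutants, from the caudal epididymis of wild type (WT) mice and from the vas deferens of WT mice. The female libraries came from the uterus of the same 4 mutants, from WT oviduct and from WT uterus, and the females were in diestrus. The mutants are named here Hoxa-/- (Hoxa9,10,11-/-), Hoxd-/- (Hoxd9,10,11-/-), Hoxa-/-d+/- (Hoxa9,10,11-/- d9,10,11+/-) and Hoxa+/-d-/- (Hoxa9,10,11+/- d9,10,11-/-). Hoxa-/- and Hoxa-/-d+/- both have no normal copy of the 3 Hoxa genes and are called the Hoxa-deficient pair of a tissue, and Hoxd-/- and Hoxa+/-d-/- the Hoxd-deficient pair. The labels name no promoter or Cre that would limit the mutations to a cell type.

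Clear cells sit among the principal cells of the epididymal epithelium and pump protons into the lumen, which keeps the stored sperm in an acidic, low-bicarbonate fluid in which they stay quiet. The pump is the vacuolar H+-ATPase (V-ATPase), made of a cytosolic part that hydrolyses ATP and a membrane part that carries the protons. Most subunits are found in every cell, but a few have isoforms restricted to proton-secreting cells of the kidney, epididymis and inner ear. Foxi1 is the forkhead transcription factor that these cells need to make some of the restricted subunits, and carbonic anhydrases supply the protons by hydrating CO2. The vas deferens continues the duct from the cauda epididymis, and cells rich in V-ATPase are also known from its proximal end.

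Promoter sequence was available for 7 of the 9 genes, as 300-base windows from 250 bases before to 50 bases after the annotated start (RefSeq, GRCm38.p6), with none for Atp6v0d2 or Car2. Foxi1 is a forkhead factor, and some of the restricted subunits are its known targets. The windows were therefore searched on both strands for the forkhead core TGTTTAC and for TGTTTNC, which contains it. The core TGTTTAC was in 1 of the 7 windows, that of Atp6v1b1, against 3.65% of all 32851 windows. The wider TGTTTNC was in 3 of the 7, against 20.5% of all windows. A match is a description of these letters and not evidence of binding. The 3 windows with a match are shown 5′ to 3′ on the strand of the gene, with the match in capitals. In Atp6v1b1 (chr6:83742767-83743066, plus strand) it begins at position -98 from the start, in Atp6v1g3 (chr1:138273488-138273787, plus strand) at -136, and in Foxi1 (chr11:34208040-34208339, minus strand) at -217, where it reads as the reverse complement.
Atp6v1b1: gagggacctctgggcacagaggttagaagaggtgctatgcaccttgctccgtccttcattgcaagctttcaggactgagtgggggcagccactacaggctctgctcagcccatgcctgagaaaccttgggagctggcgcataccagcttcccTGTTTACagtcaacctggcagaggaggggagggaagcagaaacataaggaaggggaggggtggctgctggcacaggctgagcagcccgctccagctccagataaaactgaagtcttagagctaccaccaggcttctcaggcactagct
Atp6v1g3: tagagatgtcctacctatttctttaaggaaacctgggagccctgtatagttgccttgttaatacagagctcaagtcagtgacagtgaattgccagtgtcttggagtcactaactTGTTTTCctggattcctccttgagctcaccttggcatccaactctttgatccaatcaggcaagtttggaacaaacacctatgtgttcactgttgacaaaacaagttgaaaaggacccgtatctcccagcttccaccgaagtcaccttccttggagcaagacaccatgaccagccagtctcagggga
Foxi1: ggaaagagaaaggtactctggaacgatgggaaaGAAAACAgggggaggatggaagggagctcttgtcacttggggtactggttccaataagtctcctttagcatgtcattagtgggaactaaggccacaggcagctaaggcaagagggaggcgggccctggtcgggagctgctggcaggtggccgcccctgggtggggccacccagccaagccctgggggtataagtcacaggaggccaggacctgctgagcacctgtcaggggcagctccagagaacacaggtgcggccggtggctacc

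The deposited values are log2 values centred so that the 6 libraries of a sex have a median of 0 for every gene, and only differences within a sex are used. Each value below is a log2 difference from the WT vas deferens, or from the WT uterus in the female set, unless another measure is named. Before the centring, read numbers were scaled by a single factor for each library, with values below 1 set to 1, and for some genes this lets the normalised read number be read back from the spacing of the values. Relative depth, from the value of a single read, spanned 1.92-fold over the male and 1.34-fold over the female libraries. Genes whose highest library reached 20 normalised reads, or whose level could not be read, count as measured, which gave 16980 male and 16872 female genes. With 1 library per group no test could be made, and a gene is called higher or lower at 2-fold between genotypes and at 4-fold between tissues. Intervals given for read numbers cover counting error only and say nothing of the spread between animals. Hoxa11 was at -2.29 in the Hoxa-/- and -3.20 in the Hoxa-/-d+/- vas deferens. Hoxd11 was at -2.47 in the Hoxd-/- and -1.17 in the Hoxa+/-d-/- vas deferens. Hoxd11 does not separate the vasa deferentia by Hoxd genotype, since it was also at -1.45 in the Hoxa-/-d+/- and -0.88 in the Hoxa-/- library. Hoxd9 was at -1.28 in the Hoxd-/- and -1.20 in the Hoxa+/-d-/-, against -0.33 in the Hoxa-/-d+/- and 0.69 in the Hoxa-/- library. Hoxd10 was at -0.27 in the Hoxd-/- and 0.49 in the Hoxa+/-d-/- vas deferens. In the uterus Hoxa11 was at -2.74 in Hoxa-/- and -3.11 in Hoxa-/-d+/-, and Hoxd11 at -0.59 in Hoxd-/- and -1.58 in Hoxa+/-d-/-. The Hoxd genes do not separate the uteri by genotype, since Hoxd11 was also at -0.73 in the Hoxa-/- uterus and Hoxd9 and Hoxd10 were at -0.0034 and 0.57 in the Hoxd-/- uterus. The Hoxd labels of the uteri are therefore not checked by these levels. Hoxa9 was within 2-fold of WT in Hoxa-/- and Hoxa-/-d+/- vas deferens, at 0.62 and 0.34. Which kind of mutation the alleles carry is not in the labels, so transcript levels check the genotypes only in part.

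Foxi1 (Gene ID 14233, chromosome 11, start 34104341, mm9) was highest in the epididymis and higher than WT in all 4 mutant vasa deferentia. It stood at 1565 normalised reads in WT caudal epididymis, 648 in Hoxa-/-d+/-, 443 in Hoxa-/-, 215 in Hoxa+/-d-/- and 106 in Hoxd-/- vas deferens, against 51.4 in WT vas deferens. Both Hoxa-deficient libraries thus lay above both Hoxd-deficient ones, and these above WT. The log2 differences from WT were 4.93 in the epididymis, 3.66 and 3.11 in the Hoxa-/-d+/- and Hoxa-/- and 2.06 and 1.04 in the Hoxa+/-d-/- and Hoxd-/- libraries. From 480 reads in the Hoxa-/- and 73 in the WT vas deferens, the fold was 8.60 with a 95% counting interval of 6.71 to 11.2 (exact binomial). For the Hoxa-/-d+/- library it was 12.6 (9.90 to 16.3), for the Hoxa+/-d-/- 4.17 (3.15 to 5.57) and for the Hoxd-/- 2.06 (1.51 to 2.80). Foxi1 was the only one of the 9 genes called higher in all 4 mutants, a pattern shown by 1.09% of measured genes, and 0 of the 9 were called lower in all 4, against 0.807%. The Hoxd-/- difference is close to the threshold, and with a pseudocount of 5 normalised reads it was 0.97 and no longer past it. These are whole-organ RNA pools, in which more cells of a type cannot be told apart from more RNA per cell.

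**Figure D1:**
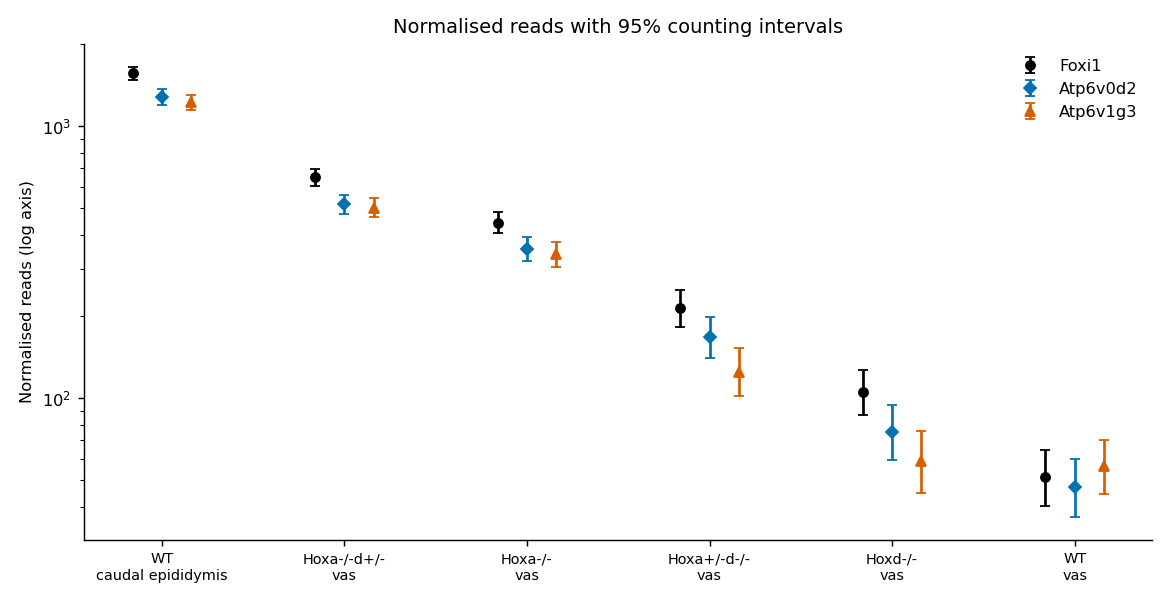
Normalised reads (log axis) of Foxi1, Atp6v0d2 and Atp6v1g3 in the 6 male libraries, with exact 95% Poisson intervals for counting error as bars and 1 library per group. Foxi1 reaches 1565 in the epididymis and 648 in the Hoxa-/-d+/- vas deferens, against 51.4 in WT vas deferens, and the other 2 genes run beside it.

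Of the 5 V-ATPase subunits, Atp6v1b1, Atp6v0d2 and Atp6v1g3 followed Foxi1 closely, and Atp6v0a4 and Atp6v1c2 less so. Atp6v0d2 (Gene ID 242341, chromosome 4, start 19803991), the d2 isoform of the membrane part, also known from osteoclasts, had 1281 normalised reads in the epididymis. It had 517 in Hoxa-/-d+/-, 355 in Hoxa-/-, 168 in Hoxa+/-d-/- and 75.3 in Hoxd-/-, against 47.2 in WT vas deferens. Both Hoxa-deficient libraries were clear of the 3 others, and the counting intervals of the Hoxd-/- (59.4 to 94.1) and WT library (36.6 to 59.9) overlapped. Its fold over WT was 11.0 (8.50 to 14.3) in the Hoxa-/-d+/- and 7.52 (5.78 to 9.89) in the Hoxa-/- vas deferens, and 1.60 (1.14 to 2.25) in the Hoxd-/-, short of 2-fold.

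Atp6v1g3 (Gene ID 338375, chromosome 1, start 140170315), the G3 isoform of the cytosolic part, had 1225 normalised reads in the epididymis. In the vas deferens it had 502 in Hoxa-/-d+/-, 338 in Hoxa-/-, 125 in Hoxa+/-d-/- and 58.7 in Hoxd-/-, against 56.3 in WT. The Hoxd-/- and WT levels were indistinguishable by counting error, with a fold of 1.04 (0.733 to 1.47), whereas the Hoxa-/- library lay 2.58 above WT on the log2 scale (95% counting interval 2.23 to 2.95). Atp6v1b1 (Gene ID 110935, chromosome 6, start 83693011) encodes the B1 isoform of the nucleotide-binding subunit, the usual marker of proton-secreting cells. Its read number could not be read back. Its log2 differences were 4.43 in the epididymis, 3.51 and 2.95 in the Hoxa-/-d+/- and Hoxa-/-, and 1.75 and 0.22 in the Hoxa+/-d-/- and Hoxd-/- vas deferens. The order of the libraries was the one seen for Foxi1, with Hoxd-/- next to WT.

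Atp6v0a4 (Gene ID 140494, chromosome 6, start 37998485), the a4 isoform through which protons cross the membrane at the apical face of intercalated cells, moved less between genotypes. It was at 3.06 in the epididymis, but at 0.73 and 0.43 in the Hoxa-/-d+/- and Hoxa-/- and at 0.0030 and -0.79 in the Hoxa+/-d-/- and Hoxd-/- vas deferens. Atp6v1c2 (Gene ID 68775, chromosome 12, start 17291527), an isoform of the C subunit that joins the cytosolic part to the membrane part, was at 2.66 in the epididymis. It was at 1.39 and 1.17 in the Hoxa-/-d+/- and Hoxa-/- and at 0.36 and -0.034 in the Hoxa+/-d-/- and Hoxd-/- vas deferens. For both genes the epididymis was the highest library, and the 5 vas deferens libraries spanned less than they did for Foxi1.

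**Figure D2:**
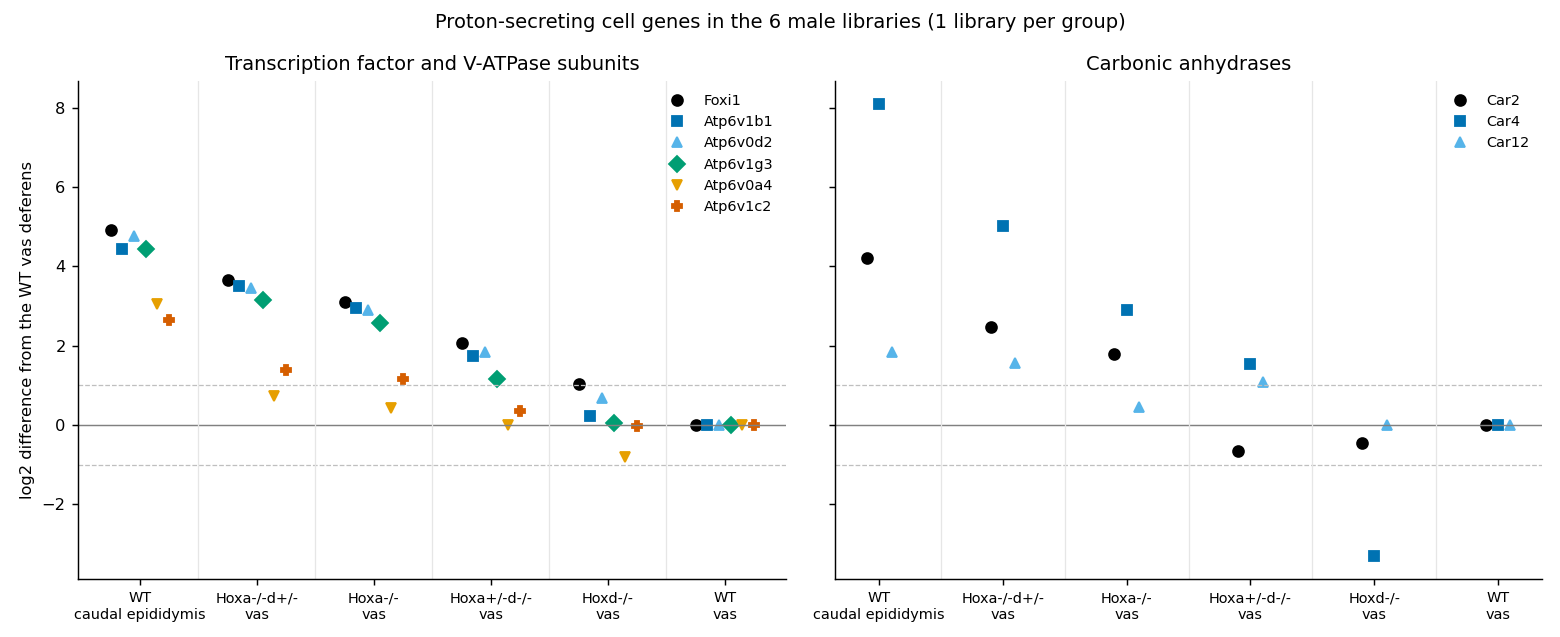
Log2 difference from the WT vas deferens (vertical axis) of the 9 genes in the 6 male libraries (horizontal axis), with 1 point per gene and library and dashed lines at 2-fold. All 9 genes are highest in the epididymis, and Foxi1 steps down to WT, with 4.93, 3.66 and 3.11 in the first 3 groups. Atp6v0a4, Atp6v1c2, Car2 and Car4 lie below WT in the Hoxd-/- library. Car4 covers the widest range, from 8.10 to -3.30.

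The carbonic anhydrases differed among themselves. Car2 (Gene ID 12349, chromosome 3, start 14886725), the cytosolic enzyme abundant in proton-secreting cells, was at 4.20 in the epididymis and at 2.47 and 1.80 in the Hoxa-/-d+/- and Hoxa-/- vas deferens. It lay below WT in the Hoxa+/-d-/- and Hoxd-/- libraries, at -0.65 and -0.46, neither past 2-fold. Car4 (Gene ID 12351, chromosome 11, start 84771345), an enzyme anchored to the outer face of the membrane, had the widest range of the 9. It was at 8.10 in the epididymis, 5.01 and 2.90 in the Hoxa-/-d+/- and Hoxa-/-, 1.53 in the Hoxa+/-d-/- and -3.30 in the Hoxd-/- vas deferens. The Hoxd-/- library was thus the lowest of the 6 for Car4, at 0.037% of the epididymal level. The read number of Car4 could not be read back in the male set, so whether this value rests on few reads is not known. The range of Car4, and its calls and gaps that use the Hoxd-/- library, carry the same limit. Car12 (Gene ID 76459, chromosome 9, start 66561549), a membrane-spanning enzyme, was at 1.84 in the epididymis, 1.56 and 0.47 in the Hoxa-/-d+/- and Hoxa-/- and 1.10 and 0.0034 in the Hoxa+/-d-/- and Hoxd-/- vas deferens. Its 2 highest vasa deferentia were Hoxa-/-d+/- and Hoxa+/-d-/-, whereas those of the other 8 genes were Hoxa-/-d+/- and Hoxa-/-.

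Against WT vas deferens, 7 of the 9 genes were called higher in the Hoxa-/- library, where 11% of measured genes were, and 8 of 9 in the Hoxa-/-d+/- library, where 14.1% were. The exceptions were Atp6v0a4 in both and Car12 in the Hoxa-/-. In the Hoxa+/-d-/- vas deferens 6 of 9 were called higher, against 7.79% of measured genes, without Atp6v0a4, Atp6v1c2 and Car2. In the Hoxd-/- vas deferens Foxi1 was the 1 gene called higher, against 3.44%, and Car4 the 1 called lower, against 4.92%. Of the 9 genes, 0 were called lower in the Hoxa-/- library, where 8.41% of measured genes were, 0 in the Hoxa-/-d+/- (8.37%) and 0 in the Hoxa+/-d-/- (5.34%). The median difference of the 9 was 2.58 in the Hoxa-/-, 3.16 in the Hoxa-/-d+/-, 1.15 in the Hoxa+/-d-/- and 0.0034 in the Hoxd-/- library, and that of all measured genes was between 0.0000 and 0.021 in these comparisons. The 9 genes were chosen with earlier results of these data known, so an excess over these shares is no independent support. All of these comparisons share the WT library. The direction for the Hoxd-deficient pair depends on that base: against the mean of the 3 Hoxd-intact vasa deferentia, 2 of which are Hoxa-deficient, Foxi1 was at -0.19 in Hoxa+/-d-/- and -1.21 in Hoxd-/-.

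Taking genotypes together, both Hoxa-deficient vasa deferentia lay above all 3 others, with at least 2-fold between the nearest libraries, for 6 of the 9 genes, against 4.11% of measured genes, and below them for 0, against 2.22%. The gap was 1.80 for Car2, 1.43 for Atp6v1g3, 1.38 for Car4, 1.20 for Atp6v1b1, 1.08 for Atp6v0d2 and 1.04 for Foxi1. Atp6v1c2 and Atp6v0a4 also separated, by 0.80 and 0.43, and the sides overlapped for Car12. The nearest of the 3 was the Hoxa+/-d-/-, with 1 mutant Hoxa copy, for 5 of these 6 genes and WT for Car2. No gene of the 9 separated the Hoxd-deficient pair from the 3 other vasa deferentia by 2-fold, against 0.141% of measured genes higher and 0.63% lower. That count rests on the WT library, which lies low beside the pair: without it, 6 of the 9 genes were lower by at least 2-fold in the Hoxd-deficient pair, namely Foxi1, Atp6v1b1, Atp6v0d2, Atp6v1g3, Car2 and Car4, against 4.89% of measured genes. Without WT the Hoxd-deficient pair is set against the Hoxa-deficient pair alone, so this restates the separation above.

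Sequencing lane partly follows genotype. The WT vas deferens was in lane 1 of run 134, with 3 mutant vasa deferentia (Hoxd-/-, Hoxa-/-, Hoxa-/-d+/-) in lane 2 of it. The Hoxa+/-d-/- vas deferens and the epididymis were in separate lanes of run 136, so lane and group cannot be told apart in the comparisons with WT. Within lane 2, the Hoxa-deficient libraries were both above the Hoxd-/- library by at least 2-fold for 8 of the 9 genes, against 9.45% of measured genes. The gaps there were 2.07 for Foxi1, 2.73 for Atp6v1b1, 2.24 for Atp6v0d2, 2.53 for Atp6v1g3 and 6.21 for Car4. Car12, at 0.46, was the exception. For the Hoxa-/- against the Hoxd-/- library alone, 8 of 9 genes were higher, against 11.3% of measured genes, and 0 lower, against 7.94%. The Hoxa-/- was below the Hoxa-/-d+/- library for all 9 genes, so these are the same gaps and no further result.

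Mutants with and without 1 mutant copy of the other cluster were compared next. The Hoxa-/-d+/- was above the Hoxa-/- vas deferens for all 9 genes, but by 2-fold only for Car4 (2.11) and Car12 (1.10), 2 of 9 against 7.59% of measured genes (lower 0, against 1.98%). Foxi1, Atp6v1b1, Atp6v0d2 and Atp6v1g3 differed there by 0.55, 0.56, 0.54 and 0.57, close to each other. The Hoxa+/-d-/- was above the Hoxd-/- vas deferens by at least 2-fold for 6 of 9 genes, against 7.96%, and lower for 0, against 4.03%, but these libraries were sequenced in different runs. Car4 differed most, at 4.83, then Atp6v1b1 (1.53), Atp6v0d2 (1.16), Car12 (1.09), Atp6v1g3 (1.09) and Foxi1 (1.02). Car2 was the 1 gene that was lower there, by less than 2-fold, at -0.19.

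The WT caudal epididymis was the highest of the 6 male libraries for all 9 genes, as it was for 28.5% of measured genes. It exceeded WT vas deferens by at least 4-fold for 8 of 9, against 9.36%, with Car12 the exception at 1.84, and 0 of the 9 were lower, against 3.98%. It exceeded each of the 5 vas deferens libraries by at least 2-fold for 7 of 9, against 5.78%. The exceptions were Atp6v1b1, 0.92 above the Hoxa-/-d+/-, and Car12, 0.28 above it. As a share of the epididymal level, Foxi1 reached 41.4% in Hoxa-/-d+/-, 28.3% in Hoxa-/-, 13.7% in Hoxa+/-d-/- and 6.75% in Hoxd-/- vas deferens, against 3.28% in WT vas deferens. Atp6v1b1 reached 53.0% in the Hoxa-/-d+/- and 36.0% in the Hoxa-/- vas deferens, against 4.65% in WT. Car4 reached 11.8% in the Hoxa-/-d+/- and 2.73% in the Hoxa-/-, against 0.365% in WT. The order epididymis, Hoxa-/-d+/-, Hoxa-/-, Hoxa+/-d-/- and then the 2 others was held by 7 of the 9 genes and by 2.53% of measured genes, an order picked after the values were seen. Car2 and Car12 departed from it.

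Because the 3 genes with read numbers come from the same libraries, their ratios within a library do not depend on the normalisation. Foxi1 gave 1.22 reads per read of Atp6v0d2 in the epididymis (95% counting interval 1.12 to 1.33), 1.25 in both the Hoxa-/-d+/- and the Hoxa-/-, 1.28 in the Hoxa+/-d-/- and 1.40 in the Hoxd-/- vas deferens. In WT vas deferens the ratio was 1.09 (0.771 to 1.54). Foxi1 itself differed 30.4-fold between epididymis and WT vas deferens (24.0 to 39.1), and the 5 other ratios lay within the counting interval of WT. Foxi1 to Atp6v1g3 was 1.28 in the epididymis and 1.29 and 1.31 in the Hoxa-/-d+/- and Hoxa-/- libraries. It was 1.71 (1.32 to 2.22) in the Hoxa+/-d-/- and 1.80 (1.30 to 2.51) in the Hoxd-/-, against 0.913 (0.655 to 1.27) in WT vas deferens. The intervals of both Hoxd-deficient libraries lie above that of WT for this pair.

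The broadly expressed V-ATPase subunits, which acidify lysosomes and other organelles in every cell, did not follow. Of 18 listed, 17 were found and measured, and 0 of 17 was called in any male comparison with WT. Their medians were 0.00097 in the epididymis, -0.18 and -0.076 in the Hoxa-/-d+/- and Hoxa-/-, and -0.45 and 0.071 in the Hoxa+/-d-/- and Hoxd-/- vas deferens. The widest single differences were -0.64 for Atp6v0e in the Hoxa+/-d-/- library and 0.62 for Atp6v1g1 in the epididymis. Atp6v1e2, an E isoform known from the testis and outside that list, had 23.0 normalised reads in the epididymis, 88.4 in Hoxa-/-d+/- and 5.53 in Hoxa-/- vas deferens. It was at the floor of 1 normalised read in both Hoxd-deficient and in WT vas deferens. Of 11 other carbonic anhydrases measured out of 13, the Hoxa-/- vas deferens had 1 higher (11% of measured genes) and 4 lower (8.41%). The Hoxa-/-d+/- had 2 higher (14.1%) and 5 lower (8.37%). Car3, a muscle enzyme, was among the higher at 1.90 and 2.22, and Car10 among the lower, at the floor in both against 5.03 normalised reads in WT. The Hoxa+/-d-/- had 3 higher (7.79%) and 0 lower (5.34%) and the Hoxd-/- 0 higher (3.44%) and 1 lower (4.92%). In the epididymis 0 of these 11 were higher by 4-fold (9.36%) and 2 were lower (3.98%).

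Of 16 partner genes of proton-secreting cells, 13 were measured in the male libraries. In the epididymis 7 were higher (9.36% of measured genes) and 1 lower (3.98%). In the Hoxa-/-d+/- 7 were higher (14.1%) and 2 lower (8.37%), and in the Hoxa-/- 4 (11%) and 2 (8.41%). In the Hoxa+/-d-/- 4 were higher (7.79%) and 0 lower (5.34%), and in the Hoxd-/- 1 (3.44%) and 0 (4.92%). Adcy10, the bicarbonate-sensing adenylyl cyclase, had 77.0 normalised reads in the epididymis, 108 in Hoxa-/-d+/-, 12.9 in Hoxa-/- and 1.29 in Hoxa+/-d-/-, and was at the floor in Hoxd-/- and WT vas deferens. Adcy10 is also abundant in male germ cells. Dmrt2, a transcription factor of intercalated cells, was at 4.95 in the epididymis, 3.61 and 3.26 in the Hoxa-/-d+/- and Hoxa-/- and 1.89 and 1.01 in the Hoxa+/-d-/- and Hoxd-/-. Bsnd, a small membrane protein of intercalated cells and the inner ear, was at 3.28 in the epididymis and within 2-fold of WT in every mutant. Slc4a1, an anion exchanger also made by red cells, was lower, at -2.23 in the epididymis and -1.51 and -2.20 in the Hoxa-/-d+/- and Hoxa-/-. Slc4a9, the basolateral exchanger of clear cells, was within the threshold everywhere, at 1.27 in the epididymis and 0.74 in the Hoxa-/-d+/-. The partner genes thus split, with some beside Foxi1 and others near WT or below it.

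**Figure D3:**
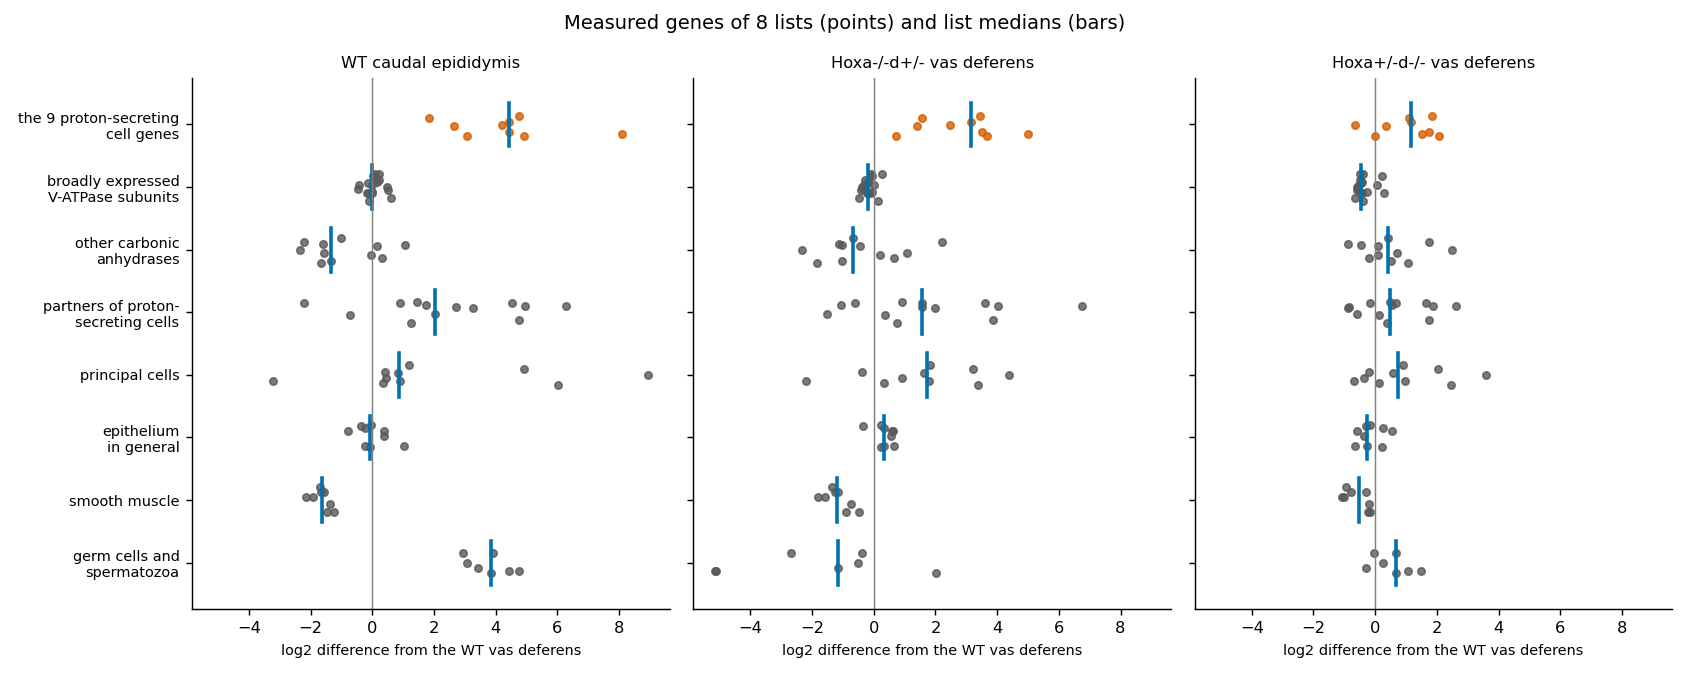
Log2 difference from the WT vas deferens (horizontal axes) of the measured genes of 8 lists, 1 point per gene with the list median as a bar, in WT caudal epididymis, Hoxa-/-d+/- and Hoxa+/-d-/- vas deferens. The 9 genes have medians of 4.43, 3.16 and 1.15, while the broadly expressed V-ATPase subunits have medians of 0.00097, -0.18 and -0.45.

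Markers of other cells moved beside these genes, and their part in the results was not tested. The shares of measured genes called in each comparison are those given above. Epithelial markers in general were called in 0 of 9 cases in every male comparison with WT, with medians of -0.061 in the epididymis and 0.34 and 0.70 in the Hoxa-/-d+/- and Hoxa-/-. Principal cell markers, 10 measured of 12, included 6 higher and 1 lower in each Hoxa-deficient library, with medians of 1.71 in the Hoxa-/-d+/- and 1.87 in the Hoxa-/-, and 0.86 in the epididymis. In the epididymis 3 of the 10 were higher and 1 was lower. Lcn5, an epididymal lipocalin, was the lower one, at -3.21 in the epididymis and -2.18 in the Hoxa-/-d+/- vas deferens. Crisp4 and Adam7, secreted or surface proteins of the epididymal epithelium, were at 8.93 and 6.03 in the epididymis and at 4.38 and 3.23 in the Hoxa-/-d+/- vas deferens. Smooth muscle markers, all 8 measured, had medians of -1.62 in the epididymis, -1.21 and -0.91 in the Hoxa-/-d+/- and Hoxa-/- and -0.53 and 0.20 in the Hoxa+/-d-/- and Hoxd-/-. Germ cell markers, all 7 measured, had medians of 3.85 in the epididymis and of -1.17 and -4.07 in the Hoxa-/-d+/- and Hoxa-/-, where the 9 genes had medians of 3.16 and 2.58. Multiciliated cell markers, all 7 measured, were called in both directions, with 5 higher and 2 lower (Hoxa-/-d+/-) and with 1 higher and 2 lower (Hoxa-/-). Tekt1, a protein of the ciliary axoneme, had 66.2 normalised reads in the epididymis, 221 in Hoxa-/-d+/-, 27.6 in Hoxa-/- and 1.29 in Hoxa+/-d-/-, and was at the floor in Hoxd-/- and WT vas deferens. Macrophage and osteoclast markers, which bear on Atp6v0d2, had medians of -0.48 in the epididymis and -0.30 and -0.20 in the Hoxa-/-d+/- and Hoxa-/-. None of the 11 principal cell, 8 smooth muscle or 7 germ cell markers found was at the floor in any male library.

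Among all measured genes outside the 9, named genes among the 8 whose centred values lay nearest to Atp6v1b1 over the 6 male libraries, by root mean square difference in log2, were Atp13a4 (0.17), 4930485B16Rik (0.23), Efr3b (0.27), Dmrt2 (0.29), Enpp1 (0.30), Slc9a3 (0.31) and Gramd2 (0.32). Among the members, Atp6v0d2 lay at 0.22, with 1 non-member nearer, Foxi1 at 0.28 with 4 nearer and Atp6v1g3 at 0.32 with 8 nearer. Atp6v1c2, Car2, Atp6v0a4 and Car12 were farther, at 0.88, 0.95, 1.09 and 1.09, with 329, 401, 694 and 702 genes nearer. Car4 was at 2.19, with 15546 genes nearer, a measure that counts the size of its range. Atp13a4, a P-type ATPase, was at 4.35 in the epididymis and at 3.43 and 3.09 in the Hoxa-/-d+/- and Hoxa-/- vas deferens. Slc9a3, the sodium-proton exchanger usually placed in principal cells, was at 4.93, 3.37 and 3.01 in the same libraries. These are 6 values per gene from the same libraries, so the list is a description.

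In the female tract the calls went in both directions in the oviduct and the Hoxa-/- uterus, and downward alone in the 3 other uteri. Foxi1 and Atp6v1g3 were not measured there: Foxi1 had 4 reads in the oviduct, 7 in Hoxa-/-d+/- and 1 in Hoxd-/- uterus, against 2 in WT uterus, with the 2 other uteri at the floor, and Atp6v1g3 had at most 2 reads in any library. Of the 7 others, the Hoxa-/- uterus had 2 called higher (6.1% of measured genes) and 1 lower (7.33%). The Hoxd-/- uterus had 0 higher (6.32%) and 4 lower (5.89%), the Hoxa-/-d+/- 0 (8.67%) and 3 (6.98%), and the Hoxa+/-d-/- 0 (8.04%) and 3 (6.41%). Atp6v0d2, Atp6v0a4 and Car4 were called lower in each of these 3 uteri, which were the uterus libraries of lane 2 of run 134, while WT was in lane 1, so lane and genotype cannot be told apart there. The medians of the 7 were -0.94 in Hoxa-/-d+/-, 0.30 in Hoxa-/-, -0.75 in Hoxa+/-d-/- and -1.10 in Hoxd-/- uterus. In the oviduct 2 were higher by 4-fold (8.75%) and 2 lower (3.62%). The oviduct was the highest of the 6 female libraries for Atp6v1b1 and Atp6v1c2, 2 of 7, as for 32.8% of measured genes. Both exceeded every uterus by at least 2-fold, by 3.09 and 3.33 over the nearest, against 9.83%. For the broadly expressed V-ATPase subunits 0 of 17 was called in any of these 5 comparisons.

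Atp6v1b1, the B1 subunit, was clearly detected in the oviduct and the Hoxa-/- uterus only. It had 473 reads in the oviduct and 52.3 in the Hoxa-/- uterus, 1 in the Hoxa-/-d+/- and was at the floor in both Hoxd-deficient uteri, against 1 in WT uterus. The fold over WT rests on that single read, at 385 (68.7 to 15228) for the oviduct and 44.8 (7.70 to 1805) for the Hoxa-/- uterus. The Hoxa-/-d+/- uterus did not share the signal of the Hoxa-/-. Atp6v1c2 was at 3.63 in the oviduct and between -1.10 and 0.30 in the 4 mutant uteri. Atp6v0a4 was at -0.88 in the oviduct and at -2.06, -0.54, -3.94 and -2.32 in the Hoxa-/-d+/-, Hoxa-/-, Hoxa+/-d-/- and Hoxd-/- uterus.

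Atp6v0d2 was highest in WT uterus, with -4.19 in the oviduct and -3.56, -3.56, -3.23 and -2.67 in the Hoxa-/-d+/-, Hoxa-/-, Hoxa+/-d-/- and Hoxd-/- uterus. It was the 1 gene of the 7 called lower in all 4 mutants, a pattern shown by 1.22% of measured genes, and it rests on 1 WT library. The Hoxa-/- and WT uteri shared lane 1 of run 134, the 3 other uteri were in lane 2 and the oviduct in run 136. Macrophage and osteoclast markers, 9 measured of 11, had 3, 2, 7 and 6 called higher in the same 4 mutants. The shares of measured genes there were 8.67%, 6.1%, 8.04% and 6.32%, and the medians of these markers were above 0 in all 4. Car4 had 2.68 normalised reads in the oviduct, 34.0 in Hoxa-/-d+/-, 62.0 in Hoxa-/-, 14.6 in Hoxa+/-d-/- and 25.1 in Hoxd-/- uterus, against 118 in WT uterus. All 5 were below WT, with a fold of 0.527 (0.382 to 0.722) in the Hoxa-/- and 0.124 (0.0682 to 0.210) in the Hoxa+/-d-/- uterus. Car2 and Car12 were at -1.14 and -1.12 in the oviduct. In the mutant uteri Car2 lay between -0.27 and 0.78, and Car12 was called in the Hoxa-/- alone, at 1.20.

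**Figure D4:**
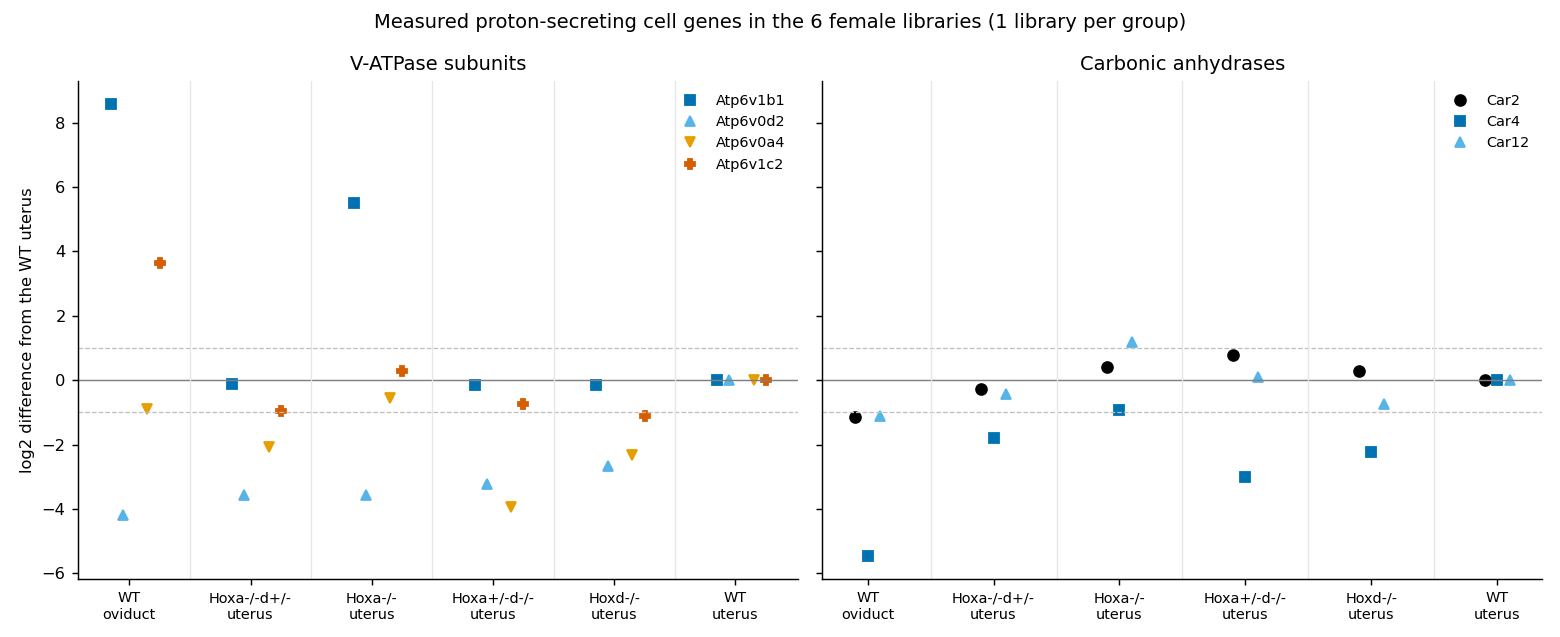
Log2 difference from the WT uterus (vertical axis) of the 7 measured genes in the 6 female libraries (horizontal axis), 1 point per gene and library, with dashed lines at 2-fold. Atp6v1b1 stands at 8.59 in the oviduct and 5.49 in the Hoxa-/- uterus, and Atp6v0d2 lies between -4.19 and -2.67 in every library but WT.

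The female libraries also differed in markers of other cells. The shares of measured genes called against WT uterus are those given above. The 8 genes nearest to Atp6v1b1 were Pla2g2f, Nr5a1, Dmkn, Cyp17a1, Gm3887, Sox3, Apoa4 and Zcchc12, at root mean square differences of 0.98 to 1.81. Nr5a1 and Cyp17a1 belong to steroid synthesis in the ovary, and Nr5a1 had 535 normalised reads in the oviduct and 10.2 in the Hoxa-/- uterus, and was at the floor in WT uterus. A list of 16 ovarian genes was then made, after these values were seen. It includes Nr5a1 and Cyp17a1, which were picked for following Atp6v1b1, and 12 of the others were measured. Of these 12, 9 were higher by 4-fold in the oviduct, with a median of 4.75, and 4 were higher and 0 lower in the Hoxa-/- uterus, with a median of 0.73. In the 3 uteri at or near the floor for Atp6v1b1, the Hoxa-/-d+/- had 2 higher and 1 lower, the Hoxa+/-d-/- 3 and 0 and the Hoxd-/- 3 and 0. Hsd3b1, a steroidogenic enzyme, had 4912 normalised reads in the oviduct, 20.3 in the Hoxa-/- and 270 in the Hoxa+/-d-/- uterus, and was at the floor in WT uterus. At the floor were 0 of the 16 in the oviduct, 1 in the Hoxa-/-d+/-, 1 in the Hoxa-/-, 3 in the Hoxa+/-d-/- and 5 in the Hoxd-/- uterus, against 5 in WT uterus. Multiciliated cell markers, which check the oviduct label, were higher in 7 of 7 cases there, with a median of 6.54. In the mutant uteri they were called in both directions. The Hoxa-/- had 2 higher and 2 lower (median -0.067) and the Hoxa-/-d+/- 1 and 2 (-0.068). The Hoxa+/-d-/- had 1 higher and 1 lower (-0.59) and the Hoxd-/- 2 and 2 (-0.45). Basal cell markers, all 7 measured, also moved in the uterus. Their medians were 3.49 in the Hoxa-/-d+/- (4 higher), 4.02 in the Hoxa-/- (4 higher, 1 lower), 1.28 in the Hoxa+/-d-/- (4 higher) and -0.20 in the Hoxd-/- uterus (0 called), and 0.087 in the oviduct. Krt5, a keratin of basal and stratified epithelium, was at 5.55 in the Hoxa-/-d+/- and 7.31 in the Hoxa-/- uterus, where Atp6v1b1 was at 1 read and 52.3 reads. The part of ovarian, ciliated or basal cells in the Atp6v1b1 and Car12 values was not tested.

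Partner genes in the female set, 9 measured of 16, were called in both directions. The oviduct had 1 higher (8.75% of measured genes) and 1 lower (3.62%). The Hoxa-/-d+/- uterus had 2 higher (8.67%) and 3 lower (6.98%), and the Hoxa-/- 4 (6.1%) and 2 (7.33%). The Hoxa+/-d-/- uterus had 2 higher (8.04%) and 4 lower (6.41%), and the Hoxd-/- 3 (6.32%) and 3 (5.89%). Hepacam2, a membrane protein of intercalated cells, was higher in each mutant, at 1.80 in the Hoxa-/-d+/-, 1.55 in the Hoxa-/-, 1.68 in the Hoxa+/-d-/- and 1.07 in the Hoxd-/- uterus. Insrr, a receptor that senses alkaline fluid, was higher in 3 of the 4, at 2.72 in the Hoxa-/-d+/-, 1.38 in the Hoxa-/- and 1.17 in the Hoxd-/-. Slc4a9 was lower in each mutant, at -3.81 in the Hoxa-/-d+/-, -2.09 in the Hoxa-/-, -4.96 in the Hoxa+/-d-/- and -3.97 in the Hoxd-/- uterus. Aqp6, a water channel of intercalated cells, had 48.2 normalised reads in the oviduct and was at the floor in all 5 uteri. Between mutant uteri, the Hoxa-/-d+/- had 0 of the 7 genes higher (6.69%) and 4 lower (5.06%) than the Hoxa-/-, led by Atp6v1b1 at -5.62 and Car12 at -1.64. The Hoxa+/-d-/- had 0 higher (5.38%) and 1 lower (4.49%) than the Hoxd-/-, Atp6v0a4 at -1.63. The Hoxa-/- had 5 higher (6.8%) and 0 lower (8.53%) than the Hoxd-/-, with Atp6v0a4 at 1.77, Car12 at 1.94 and Atp6v1c2 at 1.40 beside Atp6v1b1 and Car4. The Hoxa-/- uterus was in lane 1 of run 134 and the other mutant uteri in lane 2. Lane and genotype therefore cannot be told apart where the Hoxa-/- uterus is set against another mutant. Neither deficient pair of uteri separated from the 3 others by 2-fold for any of the 7 genes, against 0.996% of measured genes higher and 1.1% lower for Hoxa and 0.907% and 0.356% for Hoxd. Set beside the vas deferens, 4 of the 7 genes had one sign in both vasa deferentia of a deficient pair and the opposite sign in both uteri, at any size, as did 44.6% of the 15707 genes measured in both sexes.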

How the data were processed

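RNA was extracted with RNeasy Mini and libraries were made with TruSeq, per the labels' protocols, and the submitters' processing notes name TopHat and the mouse build mm9. How reads were counted and normalised is not given in the sources used here. The authors deposited 1 log2 value per gene and library. From the values, every gene is centred on its median over the 6 libraries of a sex, and before that the reads were scaled by a single factor for each library with a floor of 1 normalised read. The factor was read from the spacing of low values, and read numbers were recovered where a gene reached the floor or had a distinct pattern of whole and fractional reads. Among genes at the floor in 2 or more libraries, 61.9% of 5170 male and 64.9% of 4411 female values below 60 reads were whole. Of the same values, 82.8% and 84.6% lay on a grid of 1/50 read. Genes recovered by their pattern of reads are not in these shares.

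Differences are between deposited values with no further scaling, since library medians over measured genes were all within 0.0064 of 0. Genes count as measured with 20 normalised reads in the highest library, or where the level could not be read and varied. Calls are differences of at least 2-fold between genotypes and 4-fold between tissues. For 2 libraries against 3, the gap between the nearest libraries was used. The design has 1 library per group, so no test, p-value or SD is given, and pooled RNA from 3 animals hides the spread between animals. Intervals are exact 95% Poisson intervals on unrounded reads or exact 95% binomial intervals on rounded reads, and cover counting error only. Named genes are all 9 members, the 8 genes nearest to Atp6v1b1 by root mean square difference, and genes of the lists. From each list, up to 4 measured genes of the largest absolute difference per comparison were taken. Values of some genes under this rule are not reported here, though they remain in the counts. The members and lists were chosen with earlier results of these data known, and the ovarian list after the values were seen. Promoter windows were read from RefSeq (GRCm38.p6), another build than mm9. The calculations used Python 3.11.15, numpy 2.4.6, pandas 2.3.3, scipy 1.17.1, numba 0.67.0 and matplotlib 3.10.9.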

Additional observations from a re-analysis of the deposited data

Results flagged for a closer look

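Of the 7 genes measured in both sexes, 4 had one sign in both vasa deferentia of a deficient pair and the opposite sign in both uteri, relative to the WT library of the tissue (log2). Size was not considered, and many of the values are short of 2-fold. Pairs whose 3 uteri were all at 3 normalised reads or fewer were left out, which concerns Atp6v1b1. The same holds for 44.6% of the 15707 genes measured in both sexes, so the share of the 7 is near the background, and the difference between the tissues was not tested. Atp6v0d2 in Hoxa-/- mice was at 2.91 in the vas deferens and -3.56 in the uterus, and in Hoxa-/-d+/- mice at 3.45 and -3.56. In Hoxd-/- mice Atp6v0d2 was at 0.67 in the vas deferens and -2.67 in the uterus, and in Hoxa+/-d-/- mice at 1.83 and -3.23. Atp6v0a4 in Hoxa-/- mice was at 0.43 in the vas deferens and -0.54 in the uterus, and in Hoxa-/-d+/- mice at 0.73 and -2.06. Car4 in Hoxa-/- mice was at 2.90 in the vas deferens and -0.93 in the uterus, and in Hoxa-/-d+/- mice at 5.01 and -1.79. Car2 in Hoxd-/- mice was at -0.46 in the vas deferens and 0.27 in the uterus, and in Hoxa+/-d-/- mice at -0.65 and 0.78, with none of the Car2 values past 2-fold. All values of a tissue share 1 WT library. Against the mean of the 3 libraries with fewer than 2 mutant copies of the cluster, the opposite signs are lost for Atp6v0a4, at 1.54 in the Hoxa-/- and 0.028 in the Hoxa-/-d+/- uterus, for Car4 at 0.82 in the Hoxa-/- uterus, and for Atp6v0d2 in the Hoxd-deficient pair, at -1.45 in the Hoxd-/- and -0.29 in the Hoxa+/-d-/- vas deferens.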

How the results depend on the processing

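No paired analysis was possible because each tissue and genotype has 1 library and the labels number no replicates. The deposited values without any shift are the values reported, so taking them unshifted adds no other result, and the level of most members cannot be read as a number of reads. Of the counts of called members recomputed under an alternative, 239 were within 1.5 times the reported count and 27 were not; the cause was not tested. Of 1063 values of single members, 46 newly passed the threshold and 22 no longer did, in both cases without a change of sign. The sign changed in 18, of which 7 had been past the threshold and 4 newly passed it. Of these 18, 16 came from the base described next.

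Taking as the base the 3 libraries with fewer than 2 mutant copies of the cluster, in place of WT alone, reversed Foxi1 to -1.21 in the Hoxd-/- vas deferens, and in the Hoxa+/-d-/- vas deferens Foxi1 to -0.19, Atp6v1b1 to -0.40, Atp6v0d2 to -0.29, Atp6v1g3 to -0.76 and Car4 to -1.11, and in the Hoxa-/-d+/- uterus Atp6v0a4 to 0.028. Among values short of 2-fold it also turned Atp6v1b1 to -1.93, Atp6v0d2 to -1.45, Atp6v1g3 to -1.85 and Car12 to -0.67 in the Hoxd-/- vas deferens, and Atp6v0a4 to -0.38 and Atp6v1c2 to -0.49 in the Hoxa+/-d-/-. In the uterus it turned Atp6v0a4 to 1.54 and Car4 to 0.82 in the Hoxa-/- and Car12 to -0.16 in the Hoxa+/-d-/-. With that base 0 members were higher and 7 lower in the Hoxd-/- vas deferens, 0 higher and 2 lower in the Hoxa+/-d-/- vas deferens, and 1 lower in the uterus of Hoxa-/-d+/-. With all 5 libraries as the base, 1 was lower in the oviduct. Within lane 2 of run 134, 8 were lower in the Hoxd-/- vas deferens than in both Hoxa-deficient ones, and within lane 1, the Hoxa-/- uterus had 2 higher and 1 lower than WT. With no minimum level the Hoxa-/- uterus had 2 lower and the Hoxa-/-d+/- uterus had 1 higher. With a pseudocount of 5 normalised reads 0 were higher in the Hoxd-/- vas deferens. At 1.5-fold 2 were higher and 2 lower in the Hoxd-/- vas deferens, 1 lower in the Hoxa+/-d-/- vas deferens, 2 lower in the Hoxa-/- uterus and 1 higher in the Hoxa+/-d-/- uterus, and at 2-fold 4 were lower in the oviduct. At 3-fold the Hoxd-/- vas deferens had 0 higher, the Hoxa+/-d-/- vas deferens had 3, 1 was separated in the Hoxa-deficient vasa deferentia and 1 was higher in the Hoxa-/- uterus. Leaving out 1 library at a time gave 0 to 6 members lower in both Hoxd-deficient vasa deferentia, with 6 without WT and 1 without the Hoxa+/-d-/- library. In the uterus it gave 0 to 2 lower in both Hoxd-deficient libraries, with 2 without the Hoxd-/- or the Hoxa-/-d+/- library, and 0 to 2 higher in both Hoxa-deficient libraries, with 2 without the Hoxa-/-d+/- library.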
